A study of Homo sapiens with 22 samples.

Results

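The recurrent WT1 −KTS regions of K562 cells were the places that both streptavidin captures of tagged WT1 −KTS called and that no capture from untagged cells called. Peaks of the −KTS lists that shared at least 1 bp were merged, and a merged region was kept when it held a peak of replicate 1 and of replicate 2 and met no peak of the 3 untagged lists. On chromosomes 1 to 22 and X this left 2022 of 155645 merged −KTS regions (1.3%). The peaks of all 5 lists together merged into 156505 regions.

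K562 is a human cell line from a chronic myeloid leukaemia. All cells carried pEF1aBirAv5-neo, which expresses the bacterial biotin ligase BirA, as stable transfectants grown in G418. The WT1minusKTS cells also carried pEF1a-Flagbiotin-(WT1+17AA/-KTS)-puro, a FLAG- and biotin-tagged WT1 with the 17 amino acid insert and without the amino acids KTS. The NoTagged cells carried no second plasmid and served as the background of the capture. Chromatin was fixed with 1% formaldehyde for 10 minutes and captured on 3 mg of streptavidin beads. Of 22 libraries in the series, 5 are compared here, 2 from −KTS cells and 3 from untagged cells. The tagged protein was driven by an added plasmid in each −KTS library, so its level need not be that of WT1 in unmodified cells, and the labels do not say whether replicates came from separate cultures or clones.

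WT1 is a zinc-finger transcription factor of the kidney, the gonads and blood progenitors, and it is often highly expressed in leukaemia. Alternative splicing sets whether the amino acids KTS stand between the last pair of zinc fingers. The form without KTS is known for binding GC-rich DNA and for regulating transcription, whereas the form with KTS binds such DNA less tightly. A streptavidin capture also pulls down chromatin without any tagged protein, and the lists from untagged cells measure that background.

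The −KTS lists were longer than every untagged list, and they differed greatly from each other. Replicate 1 had 154455 peaks on the chromosomes used and replicate 2 had 3244. Untagged replicates 1, 2 and 3 had 741, 99 and 311 peaks. The geometric mean of the −KTS lists was 78.9 times that of the untagged lists, a log10 difference of 1.90 (exact two-sided permutation p = 0.2, the smallest that 2 lists against 3 allow). Its size rested on single lists, at 1.06 when −KTS replicate 1 was left out and 2.74 when replicate 2 was. The lowest peak score was 50 in both −KTS lists and 13 in the 3 untagged lists, and with a score of at least 50 everywhere the untagged lists had 114, 18 and 134 peaks and the log10 difference was 2.54, or 344.2 times. The lists give no read depth, so it is unknown how much of the difference in length goes with sequencing.

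Most peaks of the short −KTS list recurred, and few of the long one did. Of the replicate 2 peaks, 2041 (62.9%, interval 61.2% to 64.6%) lay in a region of both lists, against 2036 of the replicate 1 peaks (1.32%, interval 1.26% to 1.38%). Intervals of shares are exact Clopper-Pearson 95% intervals over peaks, which are not independent, and they cover counting error only. Replicate 2 therefore bounds the number of recurrent regions, and where they lie follows that list closely.

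Recurrence was more frequent among peaks with better scores, which are the authors' own values and rank peaks within a list. With each list divided by score into 10 nearly equal classes, 321 of 325 peaks recurred in the best class of replicate 2 (98.8%), 218 of 324 in class 5 (67.3%) and 117 of 324 in the lowest class (36.1%). In replicate 1 the best class gave 1184 recurrent peaks of 15446 (7.67%), the next class 178 of 15445 (1.15%) and the lowest class 61 of 15445 (0.395%). Recurrent peaks thus came mostly from the top of the long list and from most of the short one. Inside recurrent regions the median score was 164 in replicate 1 and 195 in replicate 2, against 101 and 114 for the peaks outside.

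Of the 2023 regions of both −KTS lists, 1 met an untagged peak (0.0494%, interval 0.00125% to 0.275%). Of all 155645 merged −KTS regions 286 did (0.184%, 0.163% to 0.206%), as did 286 peaks of replicate 1 and 1 peak of replicate 2. Only 1146 untagged regions were there to be met, which keeps these shares low. The share of untagged regions that met a −KTS peak was not counted. The region of both lists lay on chromosome 22 at 23540056 to 23540307, where replicate 1 had a peak of score 352, replicate 2 one of score 190 and untagged replicate 3 one of score 50. An untagged region lay within 10 kb of 17 of the 2022 recurrent regions (0.841%, interval 0.491% to 1.34%) and of 1.67% of all merged −KTS regions. Within 1 Mb the shares were 50.8% and 50.5%, and the median distances of 971.0 kb (interval 900.0 to 1055 kb) and 981.2 kb (971.5 to 991.2 kb) had overlapping intervals. The nearest pair was 567 bp apart, at the region on chromosome 1 at 174766653 to 174766868.

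The best-scoring recurrent regions lay on 8 different chromosomes, when the 10 with the best worst rank over both lists were taken. The first, on chromosome 21 at 47603237 to 47603996, was rank 1 of replicate 1 (score 1287) and rank 2 of replicate 2 (score 1842), and its peaks shared 736 of 760 bp. The second, on chromosome 22 at 19706471 to 19706995, was rank 2 and rank 5. The third, on chromosome 6 at 37611695 to 37612044, was rank 8 of replicate 1 and rank 1 of replicate 2, with a score of 2246 there. These sites were chosen for standing near the top of both lists, so their high ranks are not a separate result. Another, on chromosome 22 at 21921494 to 21922191, was rank 5 and rank 8 and lay 25.8 kb from an untagged peak, the shortest such distance of the 10. Of these 4 regions, both on chromosome 22 overlapped H3K4me3 peaks in 3 of 3 libraries of −KTS cells, and those on chromosomes 21 and 6 in 0 of 3.

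Recurrent regions were densest on chromosome 19 and sparsest on the X chromosome. As background, chromosomes 16, 17, 19 and 22 are rich in genes for their length and chromosomes 4, 13 and X are poor in them. Chromosome 19 held 173 regions, or 2.93 per Mb (exact Poisson 95% interval 2.51 to 3.40). Chromosomes 17, 22 and 16 followed with 1.65, 1.58 and 1.41 per Mb and overlapping intervals (1.38 to 1.96, 1.26 to 1.96 and 1.17 to 1.67). The genome as a whole had 0.666 per Mb. Lengths include peak-free stretches, among them the first 16.1 of 51.2 Mb of chromosome 22 and the first 19.0 of 115.1 Mb of chromosome 13. Densities without such stretches were not computed and could change the order of chromosomes. Chromosome 4 had 48 regions (0.251 per Mb), chromosome 13 had 25 (0.217) and X had 11 (0.0709, interval 0.0354 to 0.127). The intervals of chromosomes 4 and 13 overlapped, and that of X lay below both. Between these ends, 16 chromosomes ran from 0.399 to 0.939 per Mb without a clear step.

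**Figure D1:**
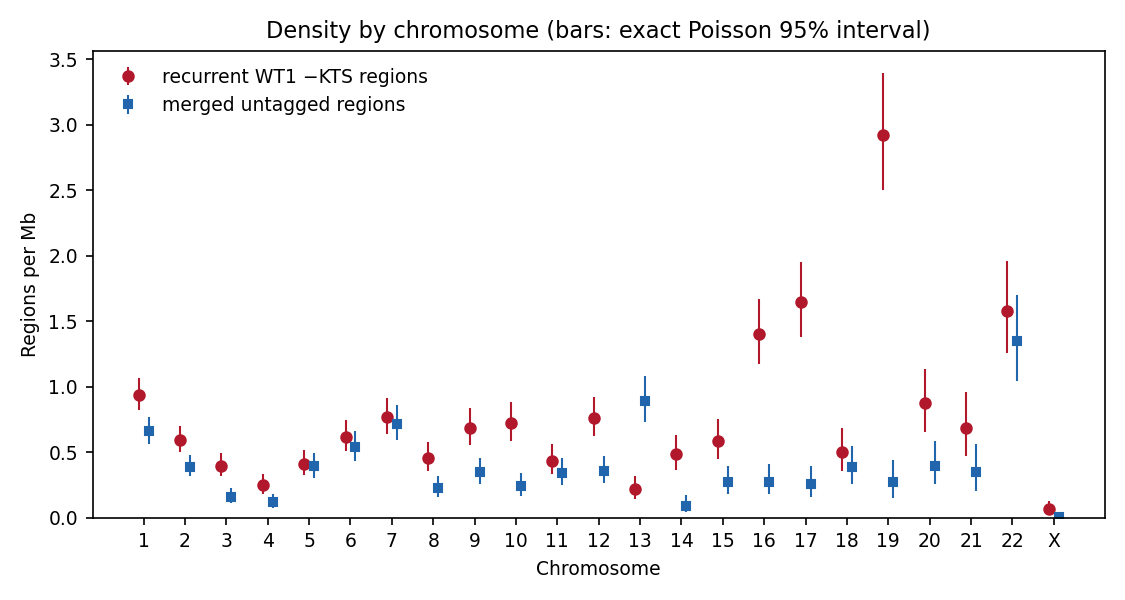
Regions per Mb (vertical axis) on each chromosome for recurrent WT1 −KTS regions (red circles) and merged untagged regions (blue squares), with exact Poisson 95% intervals as bars. Chromosome 19 has 2.93 recurrent regions per Mb against 0.271 untagged regions, while chromosome 13 has 0.217 against 0.895.

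Untagged regions followed another order of chromosomes. The untagged lists merged into 1146 regions (0.378 per Mb), densest on chromosomes 22 (1.35 per Mb), 13 (0.895) and 7 (0.716). Over the whole genome there were 1.76 recurrent regions for each untagged one. On chromosome 19 the ratio was 10.8, with 173 recurrent and 16 untagged regions, and on chromosome 17 it was 6.38, with 134 and 21. On chromosome 13 it was 0.243, with 25 and 103, and chromosome 22 had nearly even densities with a ratio of 1.17. Most of the 103 lay in a few Mb, with 14 from 81 to 82 Mb. A further 11, 37, 14 and 13 lay in the successive Mb from 90 to 94. Chromosome 22 had 9, 24 and 23 of its 69 untagged regions in the successive Mb from 21 to 24. Neither ratio therefore describes its whole chromosome. Across the 23 chromosomes the order of recurrent regions per Mb had a Spearman rho of 0.988 with replicate 2 peaks, 0.909 with replicate 1 peaks and 0.318 with untagged regions. Those values are descriptions over chromosomes, and both −KTS lists enter the recurrent regions.

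Taken list by list, the share of peaks did not overlap between the groups on 12 of 23 chromosomes (52.2%), with −KTS higher on 8 (34.8%) and lower on 4 (17.4%). Shares of 1 list sum to 100%, so chromosomes are not independent. Each of the 12 reached the smallest exact two-sided permutation p of 0.2, or 0.383 after Benjamini-Hochberg adjustment over the 23 chromosomes, so none passed 0.05 in a design that cannot. With the 99 best peaks of each list the count was 9, with −KTS higher on 5 and lower on 4.

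On chromosome 19, −KTS replicates 1 and 2 placed 6.68% and 7.71% of their peaks, and untagged replicates 1, 2 and 3 placed 1.08%, 2.02% and 1.93%. Both −KTS values lay above every untagged one. The means were 7.19% ± 0.729 (SD, n = 2) and 1.68% ± 0.519 (SD, n = 3). On chromosome 17 the −KTS shares were 5.60% and 5.73% against 1.62%, 2.02% and 2.25%. These also stood apart, with 5.67% ± 0.0929 (SD, n = 2) and 1.96% ± 0.319 (SD, n = 3). The other chromosomes with higher −KTS shares were 4, 10, 12, 14, 16 and X. On X the untagged lists placed 0%, 0% and 0.322% of their peaks (0, 0 and 1 peaks). The −KTS lists placed 1.72% and 1.39% there (2660 and 45 peaks).

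On chromosome 13 the −KTS lists held 1.83% and 1.82% of their peaks, and the untagged lists 8.91%, 3.03% and 11.3%. Both −KTS lists lay below every untagged list, and untagged replicate 2, with 3 of its 99 peaks there, came closest. From 81 to 82 Mb and in the successive Mb from 90 to 94, untagged replicate 1 had 7, 6, 26, 11 and 7 of its 66 peaks. Untagged replicate 3 had 7, 5, 11, 3 and 6 of its 35 there. The untagged shares of these lists thus rested on a few Mb, and shares over the rest of the chromosome are not given. Chromosome 7 had −KTS shares of 6.23% and 5.64% and untagged shares of 9.72%, 15.2% and 9.00%. Chromosome 6 had 5.46% and 5.30% against 7.29%, 11.1% and 8.68%, and chromosome 11 had 3.28% and 3.70% against 3.78%, 5.05% and 4.50%. On chromosome 11 the nearest lists, −KTS replicate 2 and untagged replicate 1, almost met. On chromosome 22 the untagged share depended on 1 list, with 4.05%, 3.03% and 11.9% against −KTS shares of 4.30% and 3.45%.

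**Figure D2:**
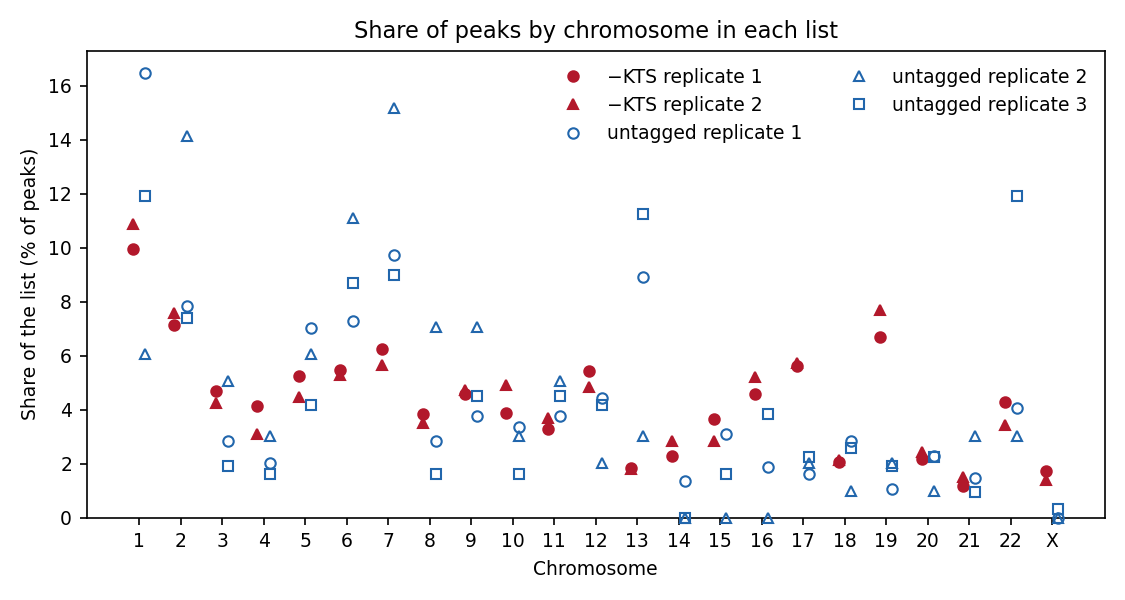
Share of each list's peaks (vertical axis, % of peaks) on each chromosome for −KTS replicates (red, filled) and untagged replicates (blue, open). The −KTS lists stay close to each other, both lie above all untagged lists on chromosomes 16, 17 and 19, and both lie below them on chromosomes 6, 7 and 13.

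Replicate 2 peaks recurred unevenly over the chromosomes. The share in a region of both lists was 76.3% (interval 69.2% to 82.5%) on chromosome 16, 75% on chromosome 22 and 72.6% on chromosome 17, beside 62.9% over all chromosomes. It was 47.5% on chromosome 4, 42.4% (29.6% to 55.9%) on chromosome 13 and 24.4% (12.9% to 39.5%) on X. Across the 23 chromosomes this share had a Spearman rho of 0.832 with replicate 1 peaks per Mb, given as a description. Chromosome 22 had 129.5 replicate 1 peaks per Mb and X had 17.1. Chromosome 21 departed from that order, with 71.4% at 37.8 per Mb, and chromosome 19, with the most replicate 1 peaks (174.4 per Mb), had 69.6%. The part of that density in the recurrence was not tested.

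In windows of 1 Mb, recurrent regions were spread thinly, with a few dense spots. Of 2885 windows with a peak in any of the 5 lists, 960 (33.3%, interval 31.6% to 35.0%) held a recurrent region and 725 (25.1%, 23.6% to 26.8%) held an untagged region. A single recurrent region stood in 520 of the 960 windows, 242 windows held 3 or more and 11 held 10 or more. For untagged regions these were 519 of 725, 58 and 8. The variance of the number per window was 3.16 times its mean for recurrent regions and 4.21 times for untagged ones. Both kinds met in 324 windows, which were 33.8% of the windows with recurrent regions and 44.7% of those with untagged ones.

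The fullest window lay on chromosome 10 from 42 to 43 Mb, with 23 recurrent and 0 untagged regions. In it replicate 1 had 80 peaks and replicate 2 had 24. Chromosome 16 from 88 to 89 Mb had 16 recurrent regions, chromosome 1 from 228 to 229 Mb had 15, and 13 each lay on chromosome 16 from 46 to 47 Mb and chromosome 22 from 19 to 20 Mb. The next places were 12 regions each on chromosome 19 from 1 to 2 Mb and from 18 to 19 Mb and 11 in its first Mb. The last of the 10 were 10 regions each in the first Mb of chromosome 1 and on chromosome 9 from 139 to 140 Mb. Together these 10 windows held 135 recurrent regions (6.68%) and 7 untagged regions. They held 1.68% and 4.87% of −KTS peaks and 0.540%, 0% and 0.965% of untagged peaks.

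Untagged regions were concentrated in other windows, none of which was among these 10. The fullest lay on chromosome 13 from 91 to 92 Mb, with 37 untagged and 0 recurrent regions. Untagged replicates 1, 2 and 3 had 26, 0 and 11 peaks there, and −KTS replicates 1 and 2 had 70 and 0. Chromosome 22 from 22 to 23 Mb and from 23 to 24 Mb had 24 and 23 untagged regions beside 7 and 4 recurrent ones. Chromosome 9 from 133 to 134 Mb had 18 beside 4. As background, K562 carries extra copies of a fusion of the BCR gene of chromosome 22 with the ABL1 gene of chromosome 9. The copy number of these windows was not measured here. The 10 fullest untagged windows held 14.7% of untagged regions and 1.38% of recurrent ones (28 of 2022). By list they held 11.9%, 7.07% and 24.4% of the untagged peaks, and 1.97% and 1.14% of the −KTS peaks.

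Replicate 1 was dense in 4 of these windows. It had 620 and 548 peaks in the pair on chromosome 22 from 22 to 24 Mb, 545 on chromosome 9 from 133 to 134 Mb and 1014 on chromosome 22 from 21 to 22 Mb, where replicate 2 had 7, 7, 7 and 10. The last of these was its fullest window. Its next fullest, with 966 peaks on chromosome 22 from 20 to 21 Mb and 918 from 19 to 20 Mb, held only 3 untagged regions each, beside 8 and 13 recurrent ones. In the 10 fullest untagged windows, 30 of 37 replicate 2 peaks recurred (81.1%) and 30 of 3048 replicate 1 peaks did (0.984%). Over all peaks of these lists the shares were 62.9% and 1.32%. Most of the 37 lay in the 4 windows dense in replicate 1 peaks, so 81.1% is not a trait of untagged windows in general.

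**Figure D3:**
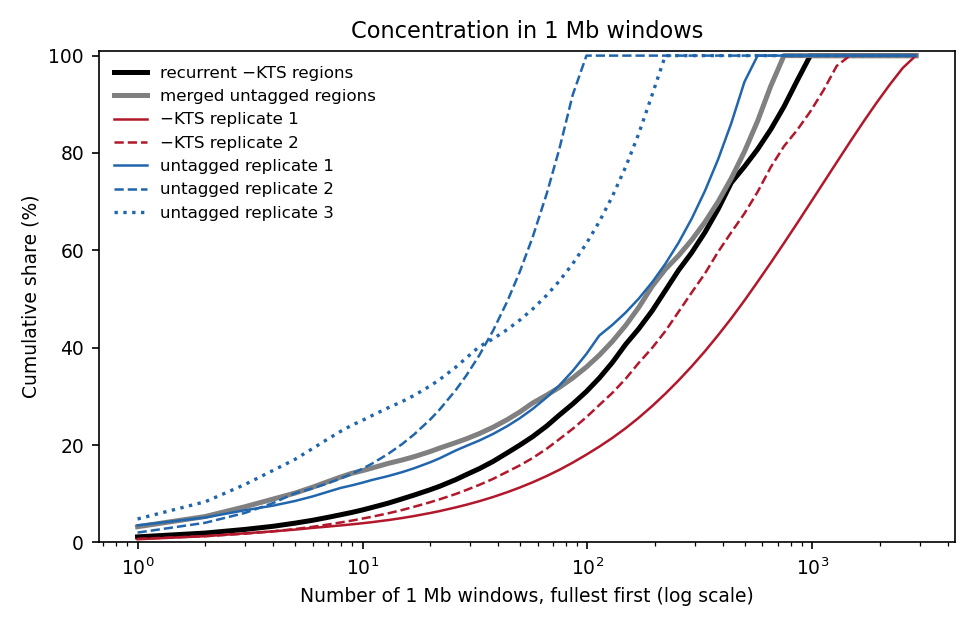
Cumulative share of peaks or regions (vertical axis, %) in the fullest 1 Mb windows (horizontal axis, number of windows on a log scale) for the recurrent −KTS regions, the merged untagged regions and each list. The 10 fullest windows hold 6.68% of recurrent regions and 14.7% of untagged regions, and shorter lists necessarily rise faster.

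Recurrent regions were frequent near the far ends of chromosomes. The last 5 Mb of the 23 chromosomes, 3.79% of the length, held 247 of 2022 recurrent regions (12.2%, interval 10.8% to 13.7%) and 37 of 1146 untagged regions (3.23%, 2.28% to 4.42%). By list, the −KTS shares were 5.78% and 11.5% and the untagged shares 2.02%, 5.05% and 5.47%. The groups did not overlap, and the nearest lists, −KTS replicate 1 and untagged replicate 3, differed by little. This stretch was chosen after the windows were seen, so no test is given.

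Both kinds of region were dense beside the longest peak-free stretch of a chromosome, which in most chromosomes spans the centromere or an assembly gap. Within 1 Mb of it, 1.35% of the length, lay 87 recurrent regions (4.30%, 3.46% to 5.28%) and 57 untagged regions (4.97%, 3.79% to 6.40%). The recurrent ones were unevenly placed, with 27 on chromosome 10, 14 on chromosome 16 and 10 on chromosome 2. On chromosomes 3, 5, 6, 12, 13, 22 and X there were 0. Leaving out all 87 gave 1935 regions with a median gap of 347.7 kb and a median width of 211 bp, close to the values of all regions.

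Recurrent regions were wider than the peaks of either −KTS list, as merging overlapping peaks must make them. Their median width was 213 bp (interval 209 to 218), from 109 to 2667 bp, and 1994 of 2022 consisted of 1 peak of each list. The merged untagged regions had a median of 152 bp (148 to 156), and only 5 of 1146 came from more than 1 list. The stretch that both −KTS peaks shared had a median of 140 bp (interval 137 to 143). A merged region is at least as wide as its peaks and a shared stretch at most as wide, so neither value can be compared with untagged widths. The shared stretch was under 50 bp in 27 regions and as short as 3 bp.

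Over all peaks, widths did not separate the groups, but over the best-scoring peaks they did. Over all peaks the median was 133 and 152 bp in the −KTS lists and 139, 106 and 213 bp in the untagged lists, with means of 142.5 bp ± 13.4 (SD, n = 2) and 152.7 bp ± 54.8 (SD, n = 3). The difference of −10.2 bp was smaller than the spread between untagged lists (exact two-sided permutation p = 1.0). Its sign turned to 20 bp without untagged replicate 3, whose narrowest peak was 193 bp wide against 123 and 91 bp in the other untagged lists. With the 99 best-scoring peaks of each list, the medians were 311 and 242 bp in −KTS and 138, 106 and 216 bp in untagged. Both −KTS lists then lay above every untagged list, by 123.2 bp on average (exact two-sided permutation p = 0.2, the smallest possible). These are 99 of 154455 and 3244 peaks in −KTS and all 99 of untagged replicate 2, so the lists were selected to different degrees.

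Peaks inside recurrent regions were wider than the rest of their own list. In replicate 1 the median was 187 bp (interval 183 to 191) inside and 132 bp outside, and in replicate 2 it was 165 bp (162 to 167) and 132 bp (130 to 135). A wider peak has more room to overlap another, so these values are given as a description. With replicate 2 divided by width into 10 nearly equal classes, 89.2% of the widest peaks recurred and 30.9% of the narrowest did. Widths over 500 bp were found in 96 recurrent regions (4.75%) and 4 untagged regions (0.349%). Merging widens the recurrent regions, so these shares cannot be compared. By list the shares over 500 bp were 0.507% and 0.863% in −KTS and 0%, 0% and 1.29% in untagged, and the groups overlapped. The widest region, on chromosome 7 at 56438110 to 56440776, joined 4 peaks over 2667 bp, of which the lists shared 700 bp. The next, on chromosome 19 at 198307 to 200823, was covered almost throughout by both lists, with 2107 of 2517 bp shared. That on chromosome 16 at 90234897 to 90237190 was similar, with 2256 of 2294 bp shared.

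**Figure D4:**
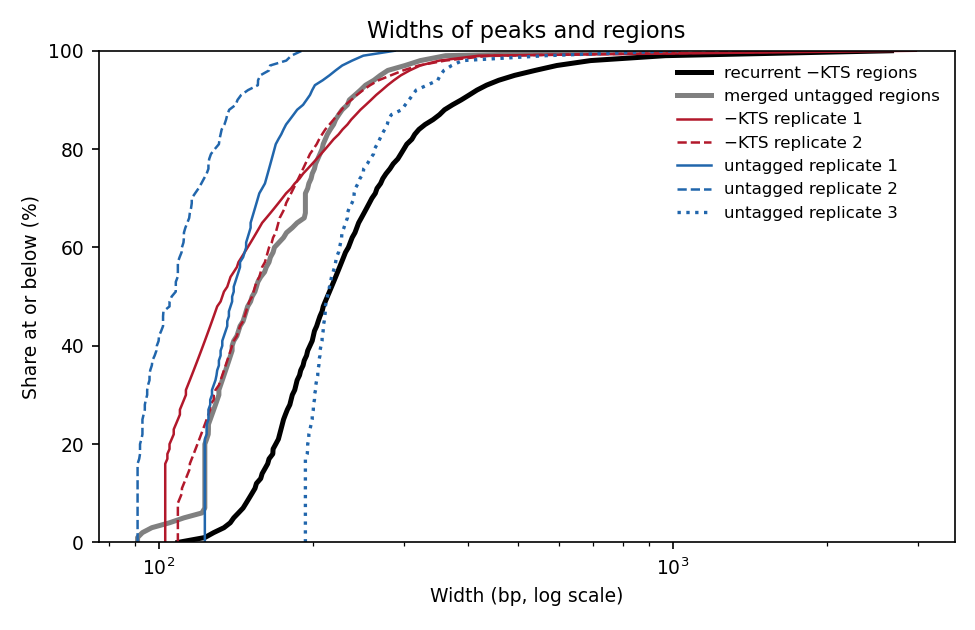
Share of peaks or regions (vertical axis, %) with a width at or below the value on the horizontal axis (bp, log scale), for the recurrent −KTS regions, the merged untagged regions and each list. The median is 213 bp for recurrent regions and 106 to 213 bp for single lists.

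Neighbouring recurrent regions lay closer together than even spacing over the chromosomes would place them. The median gap was 330.9 kb (interval 289.9 to 369.2) where even spacing of 2022 regions is 1501 kb, a ratio of 0.221. With only the best 3244 peaks of replicate 1, there were 802 regions and the median gap was 839.5 kb. For merged untagged regions the median gap was 792.3 kb (700.5 to 926.2) against 2648 kb, a ratio of 0.299, so the order of both median gaps depended on how many regions were kept. Single lists had ratios of 0.311 and 0.261 in −KTS and 0.345, 0.275 and 0.272 in untagged, so every list had a median gap well below even spacing and the groups overlapped. Points placed at random also have a median gap below even spacing, so the ratio is a description. Gaps under 1 kb made up 3.75% (interval 2.96% to 4.68%) of the gaps between recurrent regions and 0.890% (0.428% to 1.63%) of those between untagged ones. Gaps under 100 kb made up 28.0% and 19.9%. These shares rise with the number of regions, which was larger for the recurrent set.

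The 5 closest pairs were 52 to 66 bp apart. They lay on chromosome 12 near 49486326 and near 50263092, chromosome 16 near 88522260, chromosome 10 near 3827456 and chromosome 3 near 197947056, each position being the end of the first region.

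**Figure D5:**
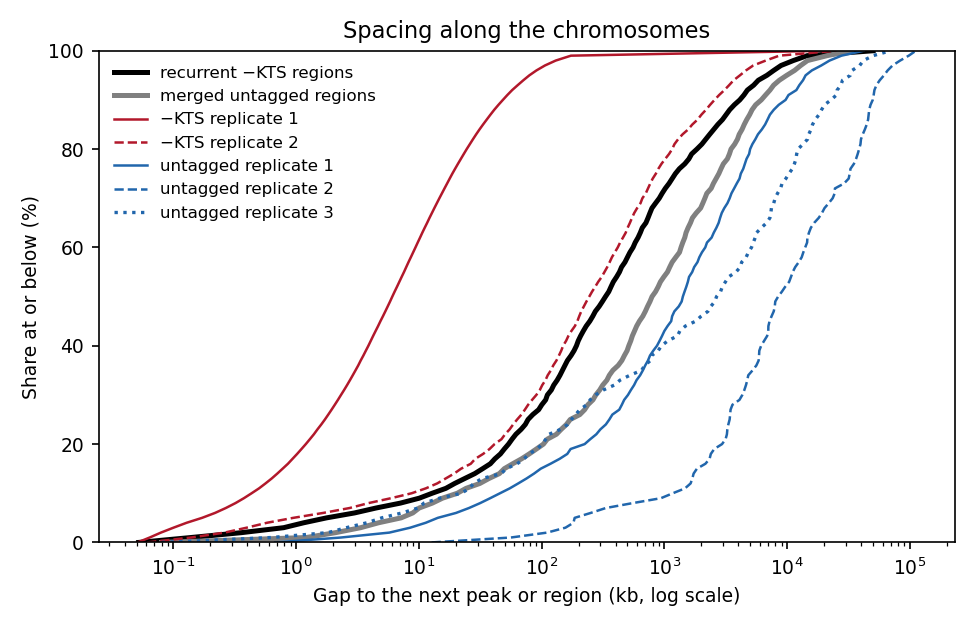
Share of gaps (vertical axis, %) at or below the distance on the horizontal axis (kb, log scale) between neighbouring peaks or regions of the same set. The curve of recurrent regions has its median, 330.9 kb, between those of replicate 2 (244.1 kb) and the merged untagged regions (792.3 kb).

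Some regions formed tight chains. Linking regions no more than 10 kb apart put 302 recurrent regions (14.9%) into 122 chains, of which 18 held 3 or more. The same linking put 130 untagged regions (11.3%) into 53 chains, of which 15 held 3 or more.

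The longest chains, of 12 regions each, lay on chromosome 1 from 228744239 to 228782547 and on chromosome 10 from 42383484 to 42400725. In the chain on chromosome 1, over 38.3 kb, the centres of neighbours were a median of 2265 bp apart. As background, the human 5S ribosomal RNA genes form a tandem array on the long arm of chromosome 1. Whether the chain lies in that array was not checked, because no annotation of the build was used. All 12 of its regions overlapped H3K4me3 in at least 2 of 3 libraries of −KTS cells. The chain on chromosome 10 was packed into 17.2 kb, and its 12 regions overlapped H3K4me3 in replicate 1 only, with 12, 0 and 0 in the 3 libraries. That H3K4me3 list differed from the others, with 33432 peaks, a median width of 199 bp and a median score of 117. Replicates 2 and 3 had 47074 and 38594 peaks, median widths of 358 and 332 bp and median scores of 302 and 361.

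Several further chains beside peak-free stretches shared that pattern, but not all did. Those of 10 regions on chromosome 16 from 46390752 to 46407070 and of 6 regions on chromosome 2 from 92307978 to 92325344 also overlapped H3K4me3 in replicate 1 and in neither other library. Away from such a stretch, a chain of 6 on chromosome 22 from 19706471 to 19719121 had 1, 4 and 4 of its regions at H3K4me3. This chain holds the second-ranked region, and the longest peak-free stretch of its chromosome ended at 16053088. A chain of 5 on chromosome 8 from 43092852 to 43097095 had none, although it lay within 1 Mb of the longest peak-free stretch of that chromosome. Untagged lists had 0 peaks within all 18 chains. By the rule no region of a chain could meet an untagged peak, and the spaces between them are short, so this is not a separate result.

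As a separate readout of the same cells, H3K4me3, a histone mark of active promoters, lay at 288, 944 and 964 of the 2022 regions in libraries 1, 2 and 3. It was found at 1114 (55.1%, interval 52.9% to 57.3%) in any library and at 867 (42.9%) in at least 2. Of merged untagged regions, 17 of 1146 (1.48%, 0.866% to 2.36%) lay at H3K4me3 in any library. These 2 sets differ in strictness. Recurrent regions needed peaks in both −KTS lists, whose scores start at 50, whereas 1141 of the 1146 untagged regions came from 1 list. Of the untagged peaks, 114 of 741, 18 of 99 and 134 of 311 had a score of at least 50. The share among all 155645 merged −KTS regions was not counted, so 55.1% cannot be called particular to the recurrent ones.

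In the last 5 Mb of chromosomes H3K4me3 lay at 94 of 247 regions (38.1%, 32.0% to 44.4%). Beside peak-free stretches it was found in 71 of 87 regions, but in only 14 of them in at least 2 libraries. Of the 59 regions at H3K4me3 in replicate 1 alone, 55 lay within 1 Mb of a peak-free stretch. With the regions divided by width into 4 nearly equal classes, the narrowest and widest classes, with median widths of 157 and 355.5 bp, had shares of 49.7% and 59.1%. Chromosome 22 had 38.3% of its 81 regions at H3K4me3 and chromosome 19 had 62.4% of 173.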

How the data were processed

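For each library the authors deposited a list of peaks, each with its position and a whole score, without read counts. The submitters' processing notes name Bowtie2 2.2.7, MACS2 2.1.1.20160226 and the build hg19. How the caller was set, and against which control, is not given in the sources used here. Names of the −KTS lists contain the word pooled, with no word on what was pooled.

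Peaks on chromosomes 1 to 22 and X were used (0.783% and 2.67% of −KTS peaks and 2.11%, 4.81% and 2.20% of untagged peaks lay elsewhere). An overlap needed 1 bp or more. A window took a region by its midpoint, and a chromosome's length was its last peak end in any of the 5 lists. Coordinates are 1-based on hg19. Lists were compared with two-sided exact permutation tests, and medians have distribution-free binomial 95% intervals. Python 3.11.15, numpy 2.4.6, pandas 2.3.3 and scipy 1.17.1 were used. The region count matched bedtools 2.31.1, and the code was tested on simulated data.

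Regions named in the text were the 10 with the best worst rank by score, the 10 widest, the 5 closest pairs, the 10 fullest windows, untagged regions of more than 1 list and the region removed for an untagged peak. The chains, the flanks of peak-free stretches, the last 5 Mb and the regions nearest an untagged peak were chosen after the data were seen. The regions and lists were chosen with earlier results of these data known. Alternatives were a higher score, equal lists, stricter overlap, distance from untagged peaks, other windows, a replicate block and leaving out each list. No annotation or sequence of hg19 was used, so genes are not given. Since the labels name no separate cultures, p-values reflect the spread among these libraries alone, which can be technical.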

Additional observations from a re-analysis of the deposited data

How the results depend on the processing

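The number of recurrent regions rested on the −KTS lists and not on the untagged ones. With equal lists, the best 3244 peaks of replicate 1 against replicate 2, there were 802 regions with a median gap of 839.5 kb and a median width of 247 bp, in 27.2% of windows. Fewer peaks of replicate 1 entered by construction. With the 99 best peaks of each list, the median width was 123.2 bp larger in −KTS, which turned the sign of the −10.2 bp difference (exact permutation p = 0.2, with both −KTS lists above every untagged list; the cause was not tested). Leaving out 1 list at a time gave 2022 to 154169 regions, median gaps of 6.08 to 330.9 kb, median widths of 133 to 213 bp and 33.3% to 99.97% of windows. The far ends of these ranges came from 1 −KTS list standing alone, with 3243 regions without replicate 1 and 154169 without replicate 2. Without any 1 untagged list there were 2022 or 2023. The log10 difference in peak number ranged from 1.06 to 2.74, the width difference from −33.5 to 20 bp, and the chromosomes without overlap from 13 to 17, since fewer lists overlap less by construction. With the 99 best peaks of each list there were 9 such chromosomes, a score of at least 50 left 10, and leaving out the 10 fullest untagged windows, an added setting, left 11. The stretch shared by both lists had a median of 140 bp. Windows of 0.5 Mb and 5 Mb were occupied at 20.9% and 73.6%, and counting all windows up to the last peak gave 31.5%. Leaving out the 10 fullest windows, also added, gave a median gap of 391.0 kb. An overlap of 0.5 of the shorter peak gave 1983 regions and a distance of 10 kb from untagged peaks 2005.

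With replicates 1 and 2 paired by number in a replicate block and untagged replicate 3 left out, the log10 difference was 1.92 (exact sign-flip p = 0.5, the smallest for 2 pairs). The width difference was 20 bp, which is the value without untagged replicate 3, and 17 chromosomes had paired differences of 1 sign. Deviations of same-numbered lists from their group means over chromosome shares had correlations of −0.234 and −0.104. The 2 −KTS lists deviate from their mean by mirrored amounts, so the crossed pairs had 0.234 and 0.104 by construction. These values cannot decide whether same-numbered lists belong together, and the labels give only the shared number.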

Other observations

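The longest stretch without a recurrent region was on the X chromosome. It covered 50.1 Mb, from 102509453 to 152599349, and held 766 peaks of −KTS replicate 1, 11 of replicate 2 and 0 untagged regions. Others on X covered 32.2 and 25.1 Mb, also with 0 untagged regions. The second longest, of 32.5 Mb, lay on chromosome 4 from 7129607 to 39640560, where there were 1000 and 5 −KTS peaks and 5 untagged regions. On chromosome 5 from 6774636 to 34656311, over 27.9 Mb, 24 untagged regions stood beside 1103 peaks of −KTS replicate 1 and 8 of replicate 2, so this stretch held untagged capture but no recurrent region.

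Of the 1146 untagged regions, 5 were called in more than 1 untagged list and 0 in all 3. Untagged replicates 1 and 2 shared one on chromosome 7, from 47810301 to 47810534 with scores of 31 and 37, and one on chromosome 22, from 23330978 to 23331109 with 26 and 22. Replicates 1 and 3 shared one on chromosome 11, from 3675016 to 3676040 with scores of 30 and 76, and one on chromosome 16, from 32833200 to 32833513 with 55 and 59. Replicates 2 and 3 shared the one on chromosome 13, from 81361044 to 81361251, with 60 and 25. None of the 5 met a peak of either −KTS list. The share of all 1146 untagged regions that met one was not counted, so the 5 cannot be set against it. That on chromosome 11, of 1025 bp, was the widest untagged region.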
